A study of Homo sapiens with 6 samples.

Results

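The genes described here are 41 genes of DNA repair other than direct alkylation repair, chosen by name from the 20325 genes of a bulk RNA sequencing table. They comprise 10 genes of homologous recombination, 5 of end joining, 6 of the Fanconi anaemia pathway, 4 checkpoint kinases, 8 genes of base excision and single-strand break repair, 2 of mismatch repair and 6 of nucleotide excision repair. The cells were SNU-668, an established human gastric cancer line. The labels describe them as resistant to erastin, a small molecule that blocks cystine import and so triggers the lipid peroxidation death called ferroptosis. Both groups were erastin-resistant cells grown in DMEM with FBS and transfected with an shRNA. The knockdown group, 3 libraries, received shRNA-ALKBH3, directed at the dioxygenase ALKBH3, and the control group, 3 libraries with the genotype label WT, received shRNA-NC. All 6 library titles share a code, RLS3, whose meaning is unknown here. All libraries come from 1 line and no label says that replicates were separate cultures, so p-values cover library-to-library spread alone and this may be technical.

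ALKBH3 strips methyl groups from alkylated bases directly, in DNA and RNA. The genes considered here mend DNA by other routes. Homologous recombination copies a broken stretch from the sister chromatid, end joining seals broken ends with no template, and the Fanconi anaemia proteins unhook crosslinks between the strands. Base excision repair removes single damaged bases, mismatch repair corrects copying errors, nucleotide excision repair cuts out bulky lesions, and the kinases ATM, ATR, CHEK1 and CHEK2 halt the cell cycle while repair proceeds. Many recombination and Fanconi genes are transcribed mainly in S and G2 phase, so their messages also depend on how many cells are cycling.

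Library totals were 14244932 to 17880183 counts, and the 41 genes took 0.350% to 0.400% of them. ALKBH3 had 326, 351 and 334 reads in the 3 controls and 95, 106 and 68 with the knockdown, a log2 fold change of -2.11 (edgeR adjusted p = 1.01e-10). The line lacked epithelial markers in part: CDH1 and CLDN18 had 0 reads in every library and EPCAM 54 in total, while the controls held KRT18 at 149 ± 10.5 CPM and the mesenchymal filament VIM at 3840 ± 168 CPM (SD, n = 3). CPM are read counts scaled to a common library size after TMM normalisation. In the knockdown the epithelial markers KRT18 (193 ± 6.28 CPM), KRT8 (13.3 ± 1.29 to 17.6 ± 0.956 CPM) and KRT7 (6.88 ± 1.53 to 13.2 ± 2.04 CPM) rose. KRT19 (1.12 ± 0.307 to 1.26 ± 0.133 CPM) and MUC1 (3.28 ± 0.685 to 3.07 ± 0.636 CPM) were not called. Nor were the mesenchymal VIM (3865 ± 44.4 CPM in the knockdown), ZEB1, FN1 (3733 ± 420 to 3348 ± 214 CPM) and CDH2 (311 ± 21.6 to 355 ± 2.5 CPM). The fibroblast markers COL1A1, COL1A2 (2247 ± 213 to 2075 ± 185 CPM) and PDGFRB were not called, and DCN and LUM had 11 and 10 reads in total. The part of these markers in the values below was not tested. On the second principal component, control replicate 2 scored -18.9 against 11.7 and 7.8 in the other controls, and knockdown replicate 1 scored 9.3 against -4.9 in both others. By chi-square per degree of freedom between library pairs, the controls were about equally far from each other (10.7, 10.7 and 10.2), while knockdown replicate 1 was at 11 and 10.4 from the other knockdown libraries, which were at 3.05 from each other. In bulk RNA, fewer cells in a state and less message per cell cannot be told apart.

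All 41 genes passed the filter on low counts. Per kilobase of exon, with exonic lengths from GENCODE 29, the mean level over all 6 libraries was highest for the Ku subunits XRCC6 (168 CPM per kilobase) and XRCC5 (135), followed by PARP1 (44.6) and PRKDC (34.1). The lowest were NEIL1 (0.263 CPM per kilobase) and RAD51D (0.894). RAD51D shares 21702 bases with another gene on the same strand, so reads from there may not be told apart and its rank is uncertain. BRCA1, at 8.59 CPM per kilobase, stood above its partner BRCA2 at 1.70.

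Most of these repair genes stayed near their control level when ALKBH3 was reduced. Of the 41, 2 fell and 0 rose in edgeR's quasi-likelihood test at an adjusted p under 0.05. The genes that fell were RAD54L, a motor protein of recombination, and NEIL3, a DNA glycosylase. Of all 12305 tested genes, 4.12% were called lower and 3.96% higher, which is 8.08% called either way. Of the repair genes 4.88% were called, so the share called was no greater than the background. Scaled by library totals alone, the split over all tested genes was 610 higher and 417 lower, in place of 487 and 507. At an unadjusted p under 0.05 there were 12 repair genes (29.3%), 10 lower and 2 higher, beside 22.2% of all tested genes. DESeq2 and limma-voom called RAD54L and NEIL3 too and none of the other 39.

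The groups did not overlap in 13 of the 41 genes (31.7%), beside 26.6% of all tested genes. The knockdown was the lower group in 10 of these (24.4%, where all tested genes gave 13.3%) and the higher in 3. The log2 fold change was negative in 25 of the 41 (61.0%, beside 48.4% of all tested genes), with a median of -0.04 against 0.01 for all tested genes. The estimate differed from the control level by under 20% in 37 genes, and the 95% interval lay within a 1.5-fold change in either direction in 37. The shares of all tested genes within these limits were not counted. The median absolute log2 fold change was 0.16 in the 41 and 0.13 in all tested genes, so small changes were not particular to the repair genes. The intervals that reached further were those of PALB2, RAD54L, XRCC4 and NEIL1.

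**Figure D1:**
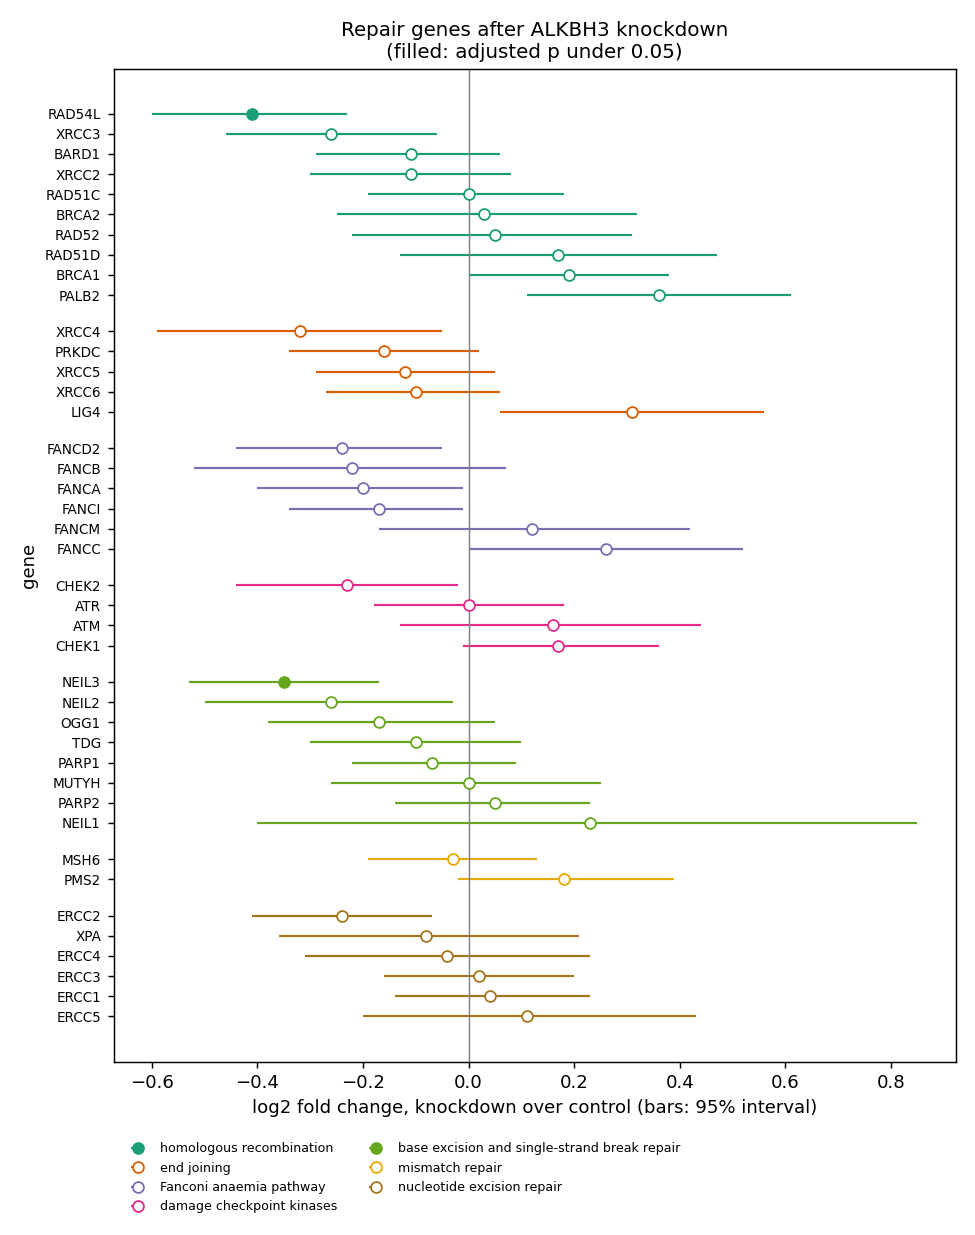
Log2 fold change, knockdown over control, of the 41 repair genes (points) with 95% intervals (bars), grouped and coloured by repair route; filled points passed at an adjusted p under 0.05. The filled points are RAD54L at -0.41 and NEIL3 at -0.35, and the open points run from -0.32 (XRCC4) to 0.36 (PALB2).

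RAD54L encodes a DNA translocase that acts in homologous recombination. The gene lies on chromosome 1 from 46713360 to 46744145 on the plus strand (hg19). Its level was 58.0, 49.1 and 53.5 CPM across the controls and 41.8, 38.7 and 40.1 CPM across the knockdown libraries. Every knockdown library was below every control library, and the means were 53.5 ± 4.46 and 40.2 ± 1.55 CPM (SD, n = 3 each). The log2 fold change was -0.41 (SE 0.0911, edgeR adjusted p = 0.0045), and RAD54L was called in all 14 alternative fits, with log2 fold changes from -0.50 to -0.35. RAD54L overlaps LRRC41 on the other strand by 17278 bases. LRRC41 was at 89.9 ± 2.68 and 77.3 ± 2.96 CPM (edgeR adjusted p = 0.0886), and since it is not stated that counting used strand, reads from their shared stretch may not be told apart.

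NEIL3 encodes a glycosylase that excises oxidised bases and can also unhook crosslinks at stalled forks. The gene lies on chromosome 4 from 178230990 to 178284097 on the plus strand (hg19). Its level was 73.3, 68.3 and 61.5 CPM in the controls and 53.2, 51.3 and 55.2 CPM in the knockdown, again without overlap. The means were 67.7 ± 5.91 and 53.2 ± 1.96 CPM, and the log2 fold change was -0.35 (SE 0.0871, edgeR adjusted p = 0.0128). The call was lost without control replicate 1 (log2 fold change -0.29, edgeR adjusted p = 0.0649), without knockdown replicate 2 (-0.32, 0.0822), and without both control replicate 2 and knockdown replicate 1 (-0.34, 0.0673).

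The promoters of both genes that fell are shown because E2F-type, CHR-type and CCAAT motifs are known from genes that oscillate with the cell cycle. Each window runs from 250 bases before to 50 bases after a transcription start in RefSeq (GRCh38.p14), read 5′ to 3′, and capitals mark motif matches. Both strands were searched. The E2F-type motif was read as TTGGCGC, with the variants that follow it, namely TTCCCGC, further the spelling TTCGCGC, and lastly the spelling TTGCCGC. The CHR-type motif was read as TTTGAA or, as its other spelling, as TTCGAA, and the remaining motif was the box CCAAT.
RAD54L, plus strand of chr1:46247438-46247737: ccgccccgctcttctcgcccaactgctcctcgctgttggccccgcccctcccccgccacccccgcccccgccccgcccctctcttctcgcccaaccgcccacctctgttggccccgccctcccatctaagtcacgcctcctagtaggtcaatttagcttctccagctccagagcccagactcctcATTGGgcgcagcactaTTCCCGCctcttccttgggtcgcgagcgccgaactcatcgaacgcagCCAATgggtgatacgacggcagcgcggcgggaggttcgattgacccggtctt
NEIL3, plus strand of chr4:177309624-177309923: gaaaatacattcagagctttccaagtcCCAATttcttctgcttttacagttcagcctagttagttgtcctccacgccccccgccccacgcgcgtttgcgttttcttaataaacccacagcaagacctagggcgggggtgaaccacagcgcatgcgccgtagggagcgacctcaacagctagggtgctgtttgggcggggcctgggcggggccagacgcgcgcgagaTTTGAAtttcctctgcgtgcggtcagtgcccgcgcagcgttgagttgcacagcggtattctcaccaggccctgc

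RAD54L had 2 windows and NEIL3 had 1. Where a gene had more than 1, the window with the most motif matches was printed, so the choice favoured matches. The printed RAD54L window held the E2F-type TTCCCGC at bases -49 to -43 from the start, and CCAAT at -65 to -61 on the minus strand and at -2 to 3. The NEIL3 window held CCAAT at -223 to -219 and the CHR-type TTTGAA at -24 to -19. No match overlapped another in these windows. RefSeq windows were found for 37 of the 41 genes; XRCC5, PRKDC, FANCI and NEIL2 had none in the table used. An E2F-type motif was in 45.0% of the 60 windows of the repair genes, in 19.1% of the 13865 windows of tested genes and in 13% of all 35116 windows. CCAAT was in 46.7%, 34.5% and 34.6% of them, and a CHR-type motif in 10.0%, 11.7% and 16.4%. The median log2 fold change was -0.05 in the 20 genes with an E2F-type match, 12 of them negative, and -0.00 in the 17 without, 9 of them negative. The CHR-type split went the other way, at 0.04 in 6 genes with a match (2 negative) and -0.04 in 31 without (19 negative). For CCAAT the medians were -0.03 in 21 genes with a match (12 negative) and -0.00 in 16 without (9 negative). These are descriptions of letters in a window and show no binding.

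**Figure D2:**
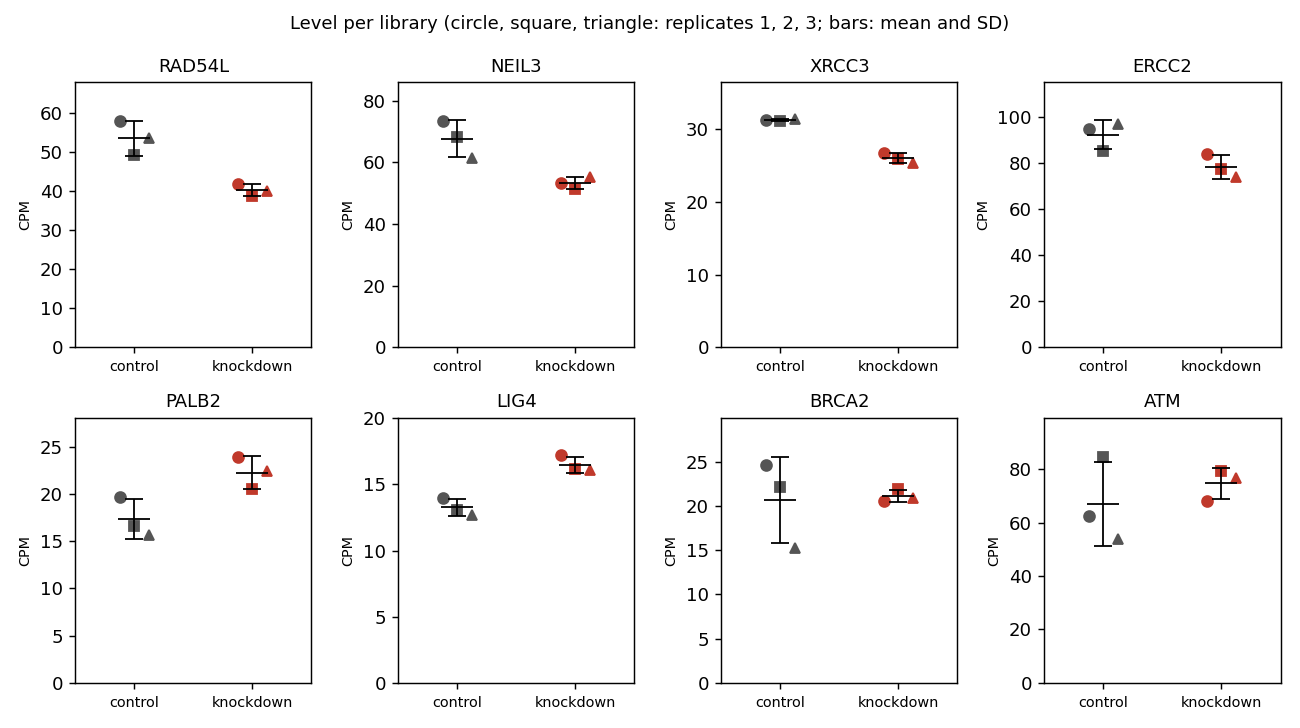
Level in CPM in each library for 8 repair genes, controls in grey and knockdown in red, with circle, square and triangle for replicates 1, 2 and 3 and bars for the mean and SD of 3 libraries. In RAD54L, NEIL3, XRCC3 and ERCC2 the knockdown points lie below all control points, in PALB2 and LIG4 above them, and in BRCA2 and ATM they lie among them.

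The other homologous recombination genes gave no call. BRCA1, which directs broken ends into recombination, was at 82.5, 76.6 and 62.3 CPM in the controls and 89.5, 78.9 and 83.8 CPM in the knockdown, so the groups overlapped (log2 fold change 0.19, edgeR adjusted p = 0.237, and 0.08 without control replicate 3). Its obligate partner BARD1 had a log2 fold change of -0.11. BRCA2, a tumour suppressor of the same route, was at 24.6, 22.2 and 15.2 CPM against 20.6, 21.9 and 20.9 CPM, and control replicate 3 alone was low. Its log2 fold change was 0.03 (edgeR adjusted p = 0.919), with a 95% interval from -0.25 to 0.32, and -0.14 without that library.

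PALB2, the bridge between BRCA1 and BRCA2, gave the highest estimate of the 41. It was at 19.7, 16.6 and 15.7 CPM in the controls and 23.9, 20.5 and 22.4 CPM in the knockdown, without overlap, and its log2 fold change was 0.36 with an SE of 0.119 (edgeR adjusted p = 0.0625). PALB2 was called in 4 of the 14 alternatives. It passed with library totals as the only scaling (edgeR adjusted p = 0.0452) and with no filter on low counts (0.048). It also passed with the replicate number as a block (0.0441) and without control replicate 1 (0.0321). The call was missed in the rest, among them DESeq2 (adjusted p = 0.0761) and limma-voom (0.064). Leaving out any other single library gave edgeR adjusted p-values from 0.0825 to 0.194. With the second control and the first knockdown library both dropped, the log2 fold change was 0.27 (0.272).

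XRCC2, XRCC3, RAD51C and RAD51D also act in recombination, and their estimates were of both signs. XRCC3 was at 31.3, 31.1 and 31.4 CPM in the controls and 26.8, 26.0 and 25.4 CPM in the knockdown. The groups were apart, with a log2 fold change of -0.26 (edgeR adjusted p = 0.106), and the call was missed in all 14 alternatives. XRCC3 shares 3943 bases with KLC1 on the other strand. Its complex partner RAD51C was at 41.4 ± 2.23 and 41.4 ± 0.733 CPM. XRCC2 had a log2 fold change of -0.11, and RAD51D, which shares 21702 bases with the readthrough gene RAD51L3-RFFL on the same strand, had 0.17. Reads from that shared stretch may not be told apart, so the RAD51D value is uncertain. RAD52, an annealing protein, had a log2 fold change of 0.05.

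Of 5 end joining genes, 0 passed (edgeR, 2 with an unadjusted p under 0.05). XRCC5 and XRCC6 form the Ku ring that caps broken ends. XRCC5 was at 767 ± 54.3 CPM without and 706 ± 41.2 CPM with the knockdown, and XRCC6 at 571 ± 28.8 and 531 ± 8.56 CPM. PRKDC, the kinase that Ku recruits, was at 607, 561 and 494 CPM against 533, 489 and 471 CPM, with overlap between the groups. Its log2 fold change was -0.16 with a 95% interval from -0.34 to 0.02 (edgeR adjusted p = 0.305).

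The genes of the ligase complex of end joining had estimates of opposite sign. LIG4, the ligase, was at 14, 13.1 and 12.7 CPM in the controls and 17.2, 16.2 and 16.1 CPM in the knockdown. All knockdown libraries were higher, with a log2 fold change of 0.31 (edgeR adjusted p = 0.116). XRCC4, the scaffold that holds the ligase, was at 25.1, 16.6 and 21.6 CPM against 17.4, 16.7 and 16.5 CPM, and control replicate 2 lay among the knockdown libraries (log2 fold change -0.32, edgeR adjusted p = 0.141). Without that library XRCC4 passed, at a log2 fold change of -0.47 (edgeR adjusted p = 0.0203), and without control replicate 1, the highest, the value was -0.18 (0.504). Its overlapping neighbour on the other strand, TMEM167A, fell with all libraries kept (-0.28, edgeR adjusted p = 0.027).

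Of 6 Fanconi genes, 0 passed (edgeR, 3 with an unadjusted p under 0.05, all lower). FANCD2 and FANCI form the clamp that is ubiquitinated at a crosslink. FANCD2 was at 57.5, 50.9 and 47.2 CPM in the controls and 47.6, 42.8 and 41.1 CPM in the knockdown, so knockdown replicate 1 lay just above control replicate 3. Its log2 fold change was -0.24 with an SE of 0.0950 (edgeR adjusted p = 0.122), and pseudogene copies of FANCD2 can take part of its reads. FANCI was at 177, 158 and 144 CPM against 143, 141 and 140 CPM, so the groups were apart by less than the spread of the controls (edgeR adjusted p = 0.204). FANCA, of the core complex that attaches the ubiquitin, was at 35.5 ± 0.258 and 30.9 ± 1.31 CPM without overlap (edgeR adjusted p = 0.205). FANCB and FANCC, also of the core complex, had log2 fold changes of -0.22 and 0.26, and the translocase FANCM had 0.12.

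The checkpoint kinases gave 0 calls of 4 (edgeR, 1 with an unadjusted p under 0.05), and the value of ATM depended on single controls. ATM, which responds to broken ends, was at 62.5, 84.7 and 54.0 CPM in the controls and 68.2, 79.5 and 76.7 CPM in the knockdown. Control replicate 2 was the highest of all 6 and control replicate 3 the lowest. The log2 fold change was 0.16 (edgeR adjusted p = 0.538). It was 0.36 (edgeR adjusted p = 0.0241) without control replicate 2 and 0.02 (0.939) without control replicate 3. ATR, which responds to stalled forks, was at 74.1, 66.5 and 63.2 CPM against 74.1, 64.4 and 64.7 CPM, with a 95% interval of the log2 fold change from -0.18 to 0.18.

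The kinases downstream of these differed in sign. CHEK1, the effector of ATR, was at 54.0, 46.6 and 50.6 CPM in the controls and 55.0, 55.2 and 60.3 CPM in the knockdown. The groups were apart by a narrow gap (log2 fold change 0.17, edgeR adjusted p = 0.250). CHEK2, the effector of ATM, was at 33.9 ± 3.77 and 28.8 ± 0.677 CPM, lower in every knockdown library (log2 fold change -0.23, edgeR adjusted p = 0.178). Here too the gap was narrow, with control replicate 2 at 29.7 CPM and knockdown replicate 2 at 29.6 CPM. CHEK2 has pseudogene copies, so its reads may be divided.

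**Figure D3:**
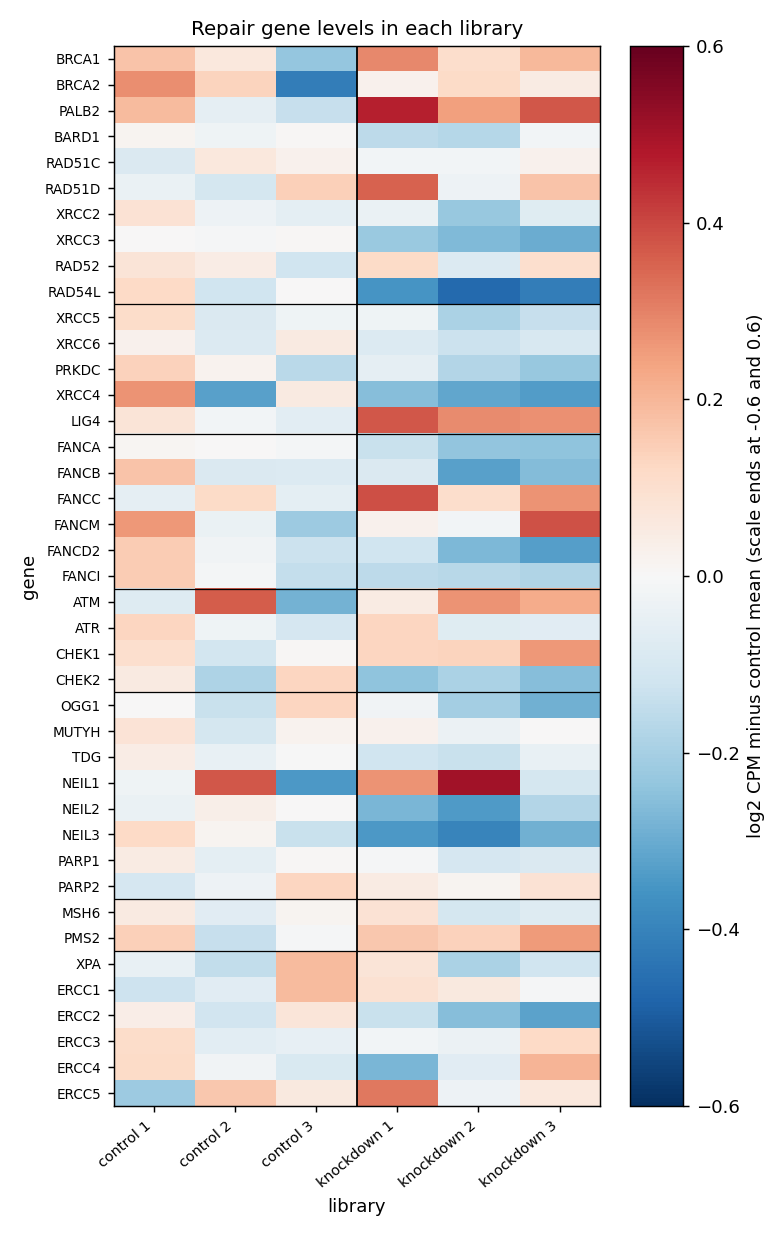
Log2 CPM of the 41 repair genes (rows, grouped by route) in each library (columns), with the control mean of each gene set to 0; red is higher, blue lower, and the scale ends at -0.6 and 0.6. Rows such as RAD54L, NEIL3 and XRCC3 are blue in all 3 knockdown libraries, PALB2 and LIG4 are red in all 3, and ATM and XRCC4 change within the controls at control replicate 2.

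In base excision repair, NEIL3 fell and the other 7 genes gave no call. OGG1, which removes oxidised guanine, was at 33.6, 30.6 and 36.7 CPM in the controls and 33.1, 29.1 and 27.4 CPM in the knockdown, with overlap (log2 fold change -0.17, edgeR adjusted p = 0.364). On the other strand OGG1 shares 12651 bases with CAMK1 and 8360 with TADA3, which was at 103 ± 6.44 and 106 ± 7.48 CPM. Reads from these stretches may not be told apart. MUTYH, which removes adenine opposite oxidised guanine, was at 14.5 ± 0.954 and 14.5 ± 0.296 CPM. TDG, a thymine glycosylase, was at 31.6 ± 1.00 and 29.5 ± 0.967 CPM. NEIL2, a relative of NEIL3, was at 19.3, 20.3 and 19.9 CPM against 16.4, 15.7 and 17.5 CPM, lower in every knockdown library (log2 fold change -0.26, edgeR adjusted p = 0.165). NEIL1, the third of that family here, had 19 to 42 reads per library, and its 95% interval ran from -0.40 to 0.85 on the log2 scale, the widest of the 41.

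PARP1 and PARP2 sense single-strand breaks and mark them with poly(ADP-ribose). PARP1 was at 339, 314 and 329 CPM in the controls and 326, 305 and 308 CPM in the knockdown, with overlapping groups (log2 fold change -0.07, 95% interval -0.22 to 0.09, edgeR adjusted p = 0.679). PARP2 was at 50 ± 4.12 and 51.7 ± 1.2 CPM.

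Neither mismatch repair gene passed (edgeR, 0 of 2 also at an unadjusted p under 0.05). MSH6, which recognises mismatched bases, was at 188, 172 and 183 CPM in the controls and 192, 168 and 172 CPM in the knockdown (log2 fold change -0.03, 95% interval -0.19 to 0.13, edgeR adjusted p = 0.867). MSH6 shares 20786 bases with FBXO11 on the other strand, which was at 87.6 ± 5.21 and 96.1 ± 4.18 CPM. PMS2, the nicking subunit, was at 31.5 ± 3.08 and 35.7 ± 1.59 CPM (edgeR adjusted p = 0.293), and its near-identical pseudogenes make that value uncertain.

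In nucleotide excision repair 0 of 6 passed (edgeR, 1 with an unadjusted p under 0.05). The exception at the unadjusted level was ERCC2, a helicase of the transcription and repair factor TFIIH, at 95.1, 85.3 and 97.3 CPM in the controls and 84.3, 77.4 and 74.0 CPM in the knockdown. Its groups did not overlap (log2 fold change -0.24, SE 0.0829, edgeR adjusted p = 0.081). Without control replicate 2 ERCC2 passed at -0.29 (edgeR adjusted p = 0.0467). ERCC3, the other helicase of TFIIH, was at 58.6 ± 3.95 and 59.5 ± 3.55 CPM.

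XPA and the nuclease genes of this route were close to their control levels. XPA, which verifies the lesion, was at 12.2, 11.3 and 14.3 CPM in the controls and 13.2, 11 and 11.6 CPM in the knockdown (log2 fold change -0.08, edgeR adjusted p = 0.795). ERCC1 was at 60.4, 62.8 and 75.1 CPM against 70.1, 68.6 and 65.6 CPM (log2 fold change 0.04, 95% interval -0.14 to 0.23, edgeR adjusted p = 0.829). ERCC4, the catalytic partner of ERCC1, and ERCC5, which cuts on the other side of the lesion, had log2 fold changes of -0.04 and 0.11. ERCC5 shares 27555 bases with the readthrough gene BIVM-ERCC5 on the same strand, so reads from there may not be told apart and its value is uncertain.

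Few of the further genes of these pathways were called. Of 118 tested other repair genes on 7 lists, 3 rose and 4 fell (5.93%, beside 8.08% of all tested genes), with a median log2 fold change of 0.01. The 3 that rose were WRN, CETN2 and XPC. The helicase WRN was at 21.2 ± 3.44 and 28.3 ± 0.511 CPM (edgeR adjusted p = 0.0253). CETN2 and XPC are subunits of one lesion-sensing complex of nucleotide excision repair. CETN2 was at 91.4, 81.5 and 88.6 CPM against 119, 110 and 105 CPM (log2 fold change 0.36, edgeR adjusted p = 0.0057). XPC was at 45.3, 36.1 and 46.0 CPM against 60.0, 50.3 and 50.3 CPM (log2 fold change 0.34, edgeR adjusted p = 0.0416). The XPC fold was 0.33 with DESeq2, where its call was lost (adjusted p = 0.0516). Its call was also lost without control replicate 2 (log2 fold change 0.23, edgeR adjusted p = 0.189) or knockdown replicate 1 (0.25, 0.201), and without both the fold was 0.14 (0.427). Leaving out knockdown replicate 2 or 3 kept the XPC fold at 0.38 in each case, with adjusted p-values of 0.0599 and 0.0559. For WRN, dropping control replicate 3 gave 0.30 (0.124). Dropping knockdown replicate 1, 2 or 3 gave WRN folds of 0.40, 0.43 and 0.42 with adjusted p-values of 0.066, 0.0662 and 0.0689, and dropping control replicate 2 with knockdown replicate 1 gave 0.42 (0.101). CETN2 missed the threshold only in this last fit among the 14 alternatives (0.26, 0.0855).

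The 4 that fell came from the Fanconi and checkpoint lists. UBE2T, the enzyme that ubiquitinates FANCD2 and FANCI, was at 75.4, 76.5 and 87.0 CPM in the controls and 50.9, 58.7 and 63.7 CPM in the knockdown. All knockdown libraries were lower, with a log2 fold change of -0.46 (edgeR adjusted p = 0.00158). CDC25A, the phosphatase that CHEK1 restrains, was at 23.9 ± 2.29 and 16.8 ± 0.455 CPM, with -0.51 (edgeR adjusted p = 0.00503). The clamp loader subunit RFC3 had -0.38 (edgeR adjusted p = 0.022) and CLSPN, the adaptor between ATR and CHEK1, had -0.41 (edgeR adjusted p = 0.0378). RFC3 was at -0.27 (0.137) with the first control left out, -0.40 (0.0557) with the second knockdown library left out and -0.34 (0.105) with the third left out, none of them called. CLSPN missed the threshold at -0.27 (0.161) with the first control left out, -0.44 (0.0599) with the second control left out, and -0.35 (0.144) and -0.34 (0.155) with the second or the third knockdown library left out.

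By list, the calls were 1 higher among 31 further recombination genes (3.23%), 0 among 10 of end joining and 1 lower among 13 Fanconi genes (7.69%). There were 3 lower among 21 checkpoint genes (14.3%), 0 among 17 of base excision repair, 0 among 9 of mismatch repair and 2 higher among 17 of nucleotide excision repair (11.8%). Of all tested genes 8.08% were called. These lists, and the KEGG groups below, are too short to read a difference from that share. The end joining, base excision and mismatch lists had 2, 4 and 1 genes with an unadjusted p under 0.05 in edgeR, and DESeq2 and limma-voom called 0 in each. Grouping by the KEGG names printed in the deposited table gave medians between -0.09 and 0.01 over 6 repair pathways. RAD54L was the 1 call among 39 tested genes of homologous recombination, NEIL3 the 1 among 33 of base excision repair and RFC3 the 1 among 22 of mismatch repair, and there were 0 among 11 of end joining. Of 43 nucleotide excision repair genes, CETN2 and XPC rose and RFC3 fell. Of 49 Fanconi genes, UBE2T and POLH fell and REV3L rose. POLH and REV3L encode DNA polymerases that copy past lesions: POLH was at 30.1 ± 1.82 and 22.4 ± 0.478 CPM (log2 fold change -0.42, edgeR adjusted p = 0.0104), and REV3L at 19.1 ± 2.9 and 25.4 ± 3.49 CPM (0.41, 0.0416).

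Some genes of proliferation fell. Their lists were chosen with earlier results of these data known, so the shares below describe the lists and test nothing. Of 22 replication and S phase genes, 5 fell (22.7%) and 0 rose, with a median log2 fold change of -0.14, and of 15 G2 and mitosis genes 9 fell (60.0%) and 0 rose, with a median of -0.28, where 4.12% of all tested genes fell. The other 17 and 6 gave no call. They include POLA1 (log2 fold change 0.09) and MCM6 (0.03), the 2 positive values of the 22, and CENPF (-0.02), the highest mitosis value. The log2 fold change was negative in 20 S phase genes (90.9%) and in all 15 mitosis genes, beside 48.4% of all tested genes. The groups were apart with the knockdown lower in 7 (31.8%) and 13 (86.7%), beside 13.3% of all tested genes. Among the 14 alternatives MKI67 lost its call in 6, CCNB2 in 5, BUB1B in 4 and MCM4 in 1, and the mitosis genes called numbered 6 without control replicate 1 and also without knockdown replicate 2. GINS4, a subunit of the replicative helicase, was at 48.8 ± 2.25 and 32.9 ± 1.35 CPM (log2 fold change -0.57, edgeR adjusted p = 1.56e-04). CDC20, which activates the anaphase-promoting complex, had -0.60 (edgeR adjusted p = 5.31e-05). The median level of the mitosis genes, on the log2 scale with the control mean of each gene at 0, was -0.31, -0.33 and -0.33 in the knockdown libraries, where that of the 41 repair genes was -0.01, -0.10 and -0.07. Over the controls the repair genes were at 0.08, -0.03 and -0.01, so knockdown replicate 1 lay among the controls. The part of cycling in the RAD54L and NEIL3 values was not tested.

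**Figure D4:**
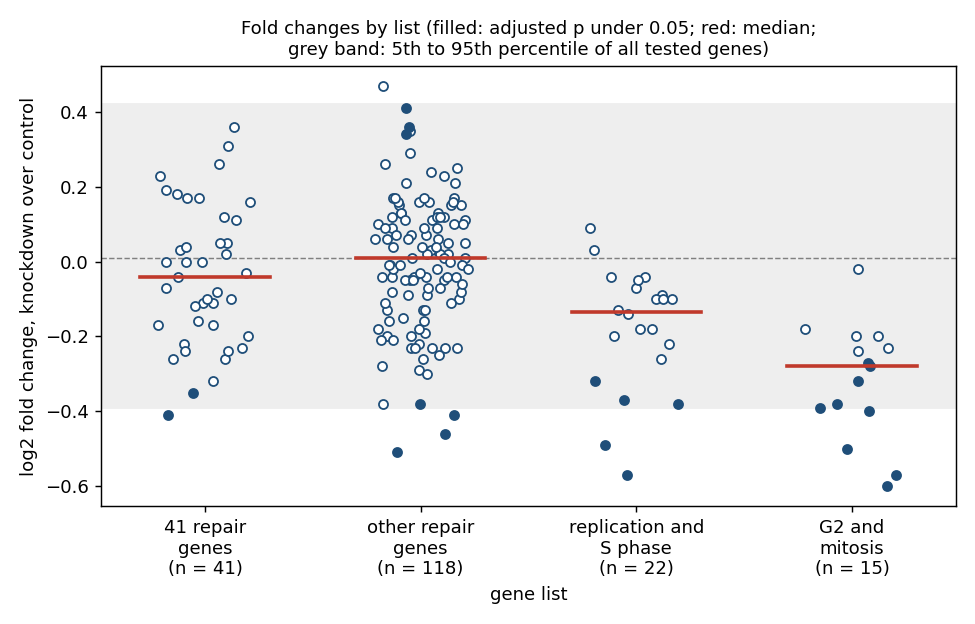
Log2 fold change, knockdown over control, of each tested gene (points, filled where called) in the 41 repair genes, the other repair genes, the replication and S phase genes and the G2 and mitosis genes, with the list median in red and the 5th to 95th percentile of all tested genes (-0.39 to 0.42) as a grey band. The medians are -0.04, 0.01, -0.14 and -0.28, and of the 41 repair genes RAD54L alone lies outside the band.

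The libraries differed in how often they held the extreme of a gene. Control replicate 1 was the highest of the 6 libraries for 16 of the 41 genes and knockdown replicate 2 the lowest for 12. The same counts were not made over all tested genes, so they may not be particular to the repair genes. Control replicate 1 was also the library in which the repair genes took the greatest share of counts, at 0.400%, against 0.365% and 0.366% in the other controls and 0.373%, 0.350% and 0.357% in the knockdown libraries. Without it, 1 repair gene rose (PALB2) and 1 fell (RAD54L), and the log2 fold changes of PRKDC and FANCI were -0.08 and -0.09. Without control replicate 2, ATM rose, and RAD54L, NEIL3, XRCC4 and ERCC2 fell. Without both control replicate 2 and knockdown replicate 1, ATM rose, and RAD54L, XRCC4 and ERCC2 fell.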

How the data were processed

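Raw counts of reads for each gene were deposited, per the file headers. The submitters' processing notes name fastp 0.20.0, STAR 2.7.9a, featureCounts 2.0, DESeq2 and hg19; for settings, strand use and annotation release the sources used here give nothing. The 6 deposited columns of normalised counts were not used, and 2 lines without values were not analysed here. Of 20325 genes, 12305 passed filterByExpr. Counts were scaled by TMM and compared with edgeR 4.0.16 in R 4.3.3 (glmQLFit with robust estimation, glmQLFTest, group alone), with Benjamini-Hochberg adjustment over all tested genes and a call at an adjusted p under 0.05. The SE is derived from the log2 fold change and its F statistic, and 95% intervals use the test's degrees of freedom. Limma 3.58.1 (voom) and DESeq2 1.42.0 were alternatives. The edgeR code was tested on simulated data. Members and lists were chosen with earlier results of these data known. Values per library are given for called members, 12 set members and some chosen after their values were seen, and for up to 3 called genes per other list; RefSeq promoters are those of called members. Exonic lengths are unions of GENCODE 29 exons (GRCh38). Of the 41 genes, 16 overlap another gene of the table.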

Additional observations from a re-analysis of the deposited data

How the results depend on the processing

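The repair genes called higher numbered 1 in place of 0 with library totals as the only scaling, with no low-count filter and with the replicate block, each time PALB2, and 1 without control replicate 2 and knockdown replicate 1 together, a choice made after seeing the data. Leaving out single libraries gave 0 to 1 higher and 1 to 4 lower, and an adjusted p under 0.01 gave 1 lower. All tested genes called numbered 312 to 433 higher and 285 to 423 lower without single libraries, and 251 higher and 207 lower at an adjusted p under 0.01. The other repair and proliferation genes called higher, 3 in all, numbered 1 to 3 without single libraries, 1 at an adjusted p under 0.01 and 0 without both libraries; those called lower, 18 in all, numbered 12 to 20 without single libraries. Signs near 0 turned for ATR (0.02 with library totals, -0.07 to 0.06 without single libraries, -0.09 without both), ERCC1 (-0.02 to 0.14, and -0.01), BRCA2 (-0.14 to 0.18, and 0.11), XPA (-0.16 to 0.02, and -0.24) and MSH6 (-0.09 to 0.01, and -0.13). The sign also turned, in 6 of 14 alternatives, for RAD51C (-0.05 to 0.03 over all), in 4 for MUTYH (-0.07 to 0.04), in 3 for ERCC3 (-0.03 to 0.08) and ERCC4 (-0.17 to 0.07), and in 1 for RAD52, FANCM and PARP2. Same-numbered libraries of the groups had correlations of deviations of 0.06, 0.10 and -0.05, and differently numbered ones had -0.14 to 0.08. These values do not settle whether the numbers pair the libraries. The replicate block gave 587 higher and 647 lower over all genes and 2 lower repair genes. DESeq2's size factors, the 1 CPM filter, DESeq2 and limma-voom left the repair gene counts at 0 and 2. The cause of these shifts was not tested. With 3 libraries a group, the median SE of the 41 genes, 0.0973 on the log2 scale, limits what can be called.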
